A study of Mus musculus with 44 samples.

Results

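Fast excitatory transmission runs through AMPA and NMDA receptors, and the transcripts of 10 of their subunit genes were followed here in the mouse nucleus accumbens after a virus had brought in RXRa, the alpha form of the retinoid X receptor and a ligand-activated transcription factor. The genes were chosen by name, with earlier results of these data known. They are the AMPA receptor subunits Gria1 to Gria4, the obligatory NMDA receptor subunit Grin1, the NMDA receptor subunits Grin2a to Grin2d, and Grin3a. They are 10 of 55487 gene rows in each of 2 count tables, and all 10 passed the low-count filter in both.

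AMPA receptors are tetramers that carry the fast current of excitatory synapses. The Gria2 subunit, after editing of its RNA, makes them nearly impermeable to calcium. NMDA receptors need Grin1 together with Grin2 or Grin3 subunits, are blocked by magnesium at rest, and pass calcium when glutamate arrives at a depolarised membrane. Grin2b predominates early in life and Grin2a rises with maturation. Grin2c is known from cerebellar granule cells and from astrocytes, and Grin2d from interneurons and deep brain nuclei. In the nucleus accumbens these receptors sit on medium spiny neurons, which fall into a class with the dopamine receptor gene Drd1 and a class with Drd2.

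The bulk table holds poly(A)-selected RNA of accumbens tissue from males given a herpes simplex virus vector, HSV-GFP in 4 libraries and HSV-RXRa-GFP in 4. The other table holds ribosomal-RNA-depleted total RNA of nuclei sorted as D1 or D2 from females and males, with 4 or 5 libraries for each combination of population, sex and vector. Those animals received AAV9-CAG-DIO-EGFP or AAV9-CAG-DIO-EGFP-P2A-RXRa, where CAG is a broadly active promoter and DIO an insert that Cre recombinase must invert before it is expressed. The labels used here give neither the Cre line, nor age, nor whether animals were pooled, so p-values measure the spread between libraries. In all, 18 D1 and 17 D2 libraries entered comparisons, and 1 further library, whose title and vector label disagree, entered none.

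Bulk libraries held 21567565 to 29167142 counts over genes, and sorted libraries 12211655 to 27757463. The RXRa vector sequence had 0 counts in every bulk GFP library and 22.1 to 37.7 CPM (counts per 1000000) in the bulk RXRa libraries. In sorted nuclei it had at most 0.877 CPM under EGFP and 43.4 to 710 CPM under RXRa. Drd2 stood at 681 ± 151 CPM (SD, n = 9) in D2 EGFP nuclei and 60.3 ± 7.33 CPM (SD, n = 10) in D1 EGFP nuclei, and Drd1 at 12.3 ± 3.88 and 49.8 ± 17.3 CPM. The sort labels therefore match the defining receptor of each population, but neither sort was free of the other receptor's counts.

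The sorted tables carry a diffuse layer of counts that matters for every subunit. Genes with 0 counts in all bulk libraries still had counts in the sorted libraries, and over 2758 such genes those counts followed the length of the whole gene body (Pearson r = 0.79 across genes on log scales, slope 0.98) more than the length of the exons (r = 0.44). For each library the median density over 1576 silent autosomal protein-coding genes was taken, as CPM of the unscaled library total per kilobase of gene body, and is called the silent-gene density below. It was 0.551 ± 0.0258 (SD, n = 9) in D2 EGFP, 0.432 ± 0.0889 (SD, n = 8) in D2 RXRa, 0.529 ± 0.0466 (SD, n = 10) in D1 EGFP and 0.466 ± 0.0701 (SD, n = 8) in D1 RXRa. In D2, 6 of 8 RXRa libraries lay below every EGFP library. Levels between genes are compared per kilobase, of exon in bulk and of gene body in sorted nuclei, and the 2 scales are not set against each other.

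RXRa acts at DNA through the hexamer AGGTCA, so the start-site regions of the subunits are shown with that motif in capitals. RefSeq promoters (build GRCm38.p6, 250 bases before to 50 after the gene start) were found for 5 of the 10 genes: Gria2, Gria4, Grin1, Grin2c and Grin2d. The RefSeq start of Grin2d lies inside the gene as GENCODE places it, so that window is not at the GENCODE start. The first 2 sequences belong to the AMPA and NMDA subunits that are highest per kilobase of gene body in sorted nuclei, Gria2 at chr3:80802786-80803085 and Grin1 at chr2:25319138-25319437, and the third to Grin2c at chr11:115267194-115267493, the only one of the 5 with the motif. All are given 5′ to 3′ on the minus strand, from which the genes are read.
Gria2: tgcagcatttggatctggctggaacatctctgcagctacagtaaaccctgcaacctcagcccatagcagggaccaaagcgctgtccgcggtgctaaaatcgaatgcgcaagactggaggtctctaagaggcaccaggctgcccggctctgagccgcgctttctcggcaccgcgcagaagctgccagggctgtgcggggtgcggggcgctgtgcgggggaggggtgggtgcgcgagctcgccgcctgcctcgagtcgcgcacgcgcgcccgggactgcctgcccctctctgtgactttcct
Grin1: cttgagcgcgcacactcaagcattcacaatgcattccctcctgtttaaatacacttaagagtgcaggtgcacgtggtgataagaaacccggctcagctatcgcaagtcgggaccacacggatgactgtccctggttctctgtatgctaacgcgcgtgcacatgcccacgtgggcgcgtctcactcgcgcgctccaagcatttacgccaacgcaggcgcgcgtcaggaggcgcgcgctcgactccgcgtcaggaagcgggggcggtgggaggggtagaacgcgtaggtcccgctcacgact
Grin2c: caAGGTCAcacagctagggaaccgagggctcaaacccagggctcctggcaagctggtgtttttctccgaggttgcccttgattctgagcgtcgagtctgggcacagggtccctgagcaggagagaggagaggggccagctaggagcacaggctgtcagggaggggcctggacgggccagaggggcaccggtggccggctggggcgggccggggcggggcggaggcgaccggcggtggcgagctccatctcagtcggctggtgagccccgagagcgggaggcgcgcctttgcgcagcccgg
The Grin2c match starts at position -248 from the gene start. Searched on both strands, the hexamer occurred in 5340 of 32851 mouse promoters of that length (16.3%), and 2 copies in the same direction spaced by 1 base, the arrangement known for RXR dimers, occurred in 13 of them and in none of the 5. Gria2 and Grin1 have 26 and 33 CpG dinucleotides in these windows, against a median of 7 over all promoters. The search describes letters in these windows and not binding.

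In bulk tissue AMPA subunits led. Gria1 had 99.1 ± 5.51 CPM per kilobase of exon in the GFP libraries (SD, n = 4), Gria2 46 ± 3.73, Grin1 36.4 ± 2.49, and Grin2b 21.4 ± 1.61. Below them came Gria3 at 17.8 ± 3.59, Grin2c at 14 ± 2.3, Gria4 at 9.7 ± 1.35, Grin2a at 6.63 ± 1.32, Grin3a at 2.56 ± 0.661 and Grin2d at 2.02 ± 0.471. The ranges of neighbours overlapped for Grin2b with Gria3, Gria3 with Grin2c, Grin2c with Gria4, and Grin3a with Grin2d, and were apart for the other 5 neighbours. Gria1 made up 57.5% ± 3.08 of the 4 AMPA subunits per exon length and Gria2 26.6% ± 0.858. Among Grin2a to Grin2d, Grin2b took 48.8% ± 4.44 and Grin2c 31.7% ± 3.67. With gene-body length in place of exon length Gria2 would take 68.8% and Grin2c 69.1%, so these shares rest on the length used.

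In bulk, 1 subunit was called, Gria1, and it was lower under RXRa. Its level was 617, 568, 574 and 637 CPM in the 4 GFP libraries and 528, 497, 484 and 497 CPM in the 4 RXRa libraries. Every RXRa library lay below every GFP library, and the share of all genes with groups apart is not given here. The log2 fold change was -0.26 ± 0.06 (SE; a ratio of 0.837; edgeR quasi-likelihood test, adjusted p = 0.0461), against a background of 3.7% called among 18579 genes. The call held when 1 RXRa library (replicate 1) was left out and was lost when any of the other 7 was, with an adjusted p between 0.0391 and 0.156 and a log2 fold change between -0.28 and -0.23 over the 8 fits.

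Grin2b had a larger fold change and a wider spread. It stood at 560, 472, 545 and 548 CPM under GFP and at 351, 520, 407 and 339 CPM under RXRa. RXRa replicate 2 lay among the GFP values and the other 3 below them. The log2 fold change of -0.39 ± 0.13 did not pass (adjusted p = 0.129 by edgeR), and without that library it was -0.54 with an adjusted p of 0.033. Gria4 stood at 56.7, 53.6, 73 and 61.3 CPM under GFP and 51.7, 53, 56.6 and 54.2 CPM under RXRa, overlapping groups with a log2 fold change of -0.18 ± 0.09 (adjusted p = 0.283 by edgeR). For the other 7 subunits the log2 fold change lay between -0.20 (Grin2c) and 0.03 (Grin2d), and none passed. The median over the 10 was -0.12, against -0.02 over all genes tested, and 9 of the 10 values were below 0.

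Markers of other cells varied among the bulk libraries. The summed level of 5 cortical excitatory neuron markers ran from 7.43 to 725 CPM under GFP and from 68.3 to 542 CPM under RXRa. GFP replicate 3, with the highest sum, also had the highest GFP value of 8 of the 10 subunits, Gria1 and Grin2b being the others; it was 770 CPM for Gria2, 226 for Gria3 and 150 for Grin2a. All 4 T cell markers were higher under RXRa, with a summed level of 4.8 to 7.46 CPM under GFP and 10.6 to 29.1 under RXRa. The 5 oligodendrocyte markers summed to 4275 to 4812 CPM under GFP and 2586 to 4471 under RXRa, with none called. Of 5 astrocyte markers 1 was called higher, with a median log2 fold change of -0.01 over the 5. Their sum ran from 2917 to 3327 CPM under GFP and from 2661 to 3003 under RXRa. Of 5 D2 projection neuron markers 1 was called lower (median log2 fold change -0.22). In tissue, fewer cells of a type and less RNA per cell cannot be told apart, and the part of these cells in the bulk values was not tested.

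**Figure D1:**
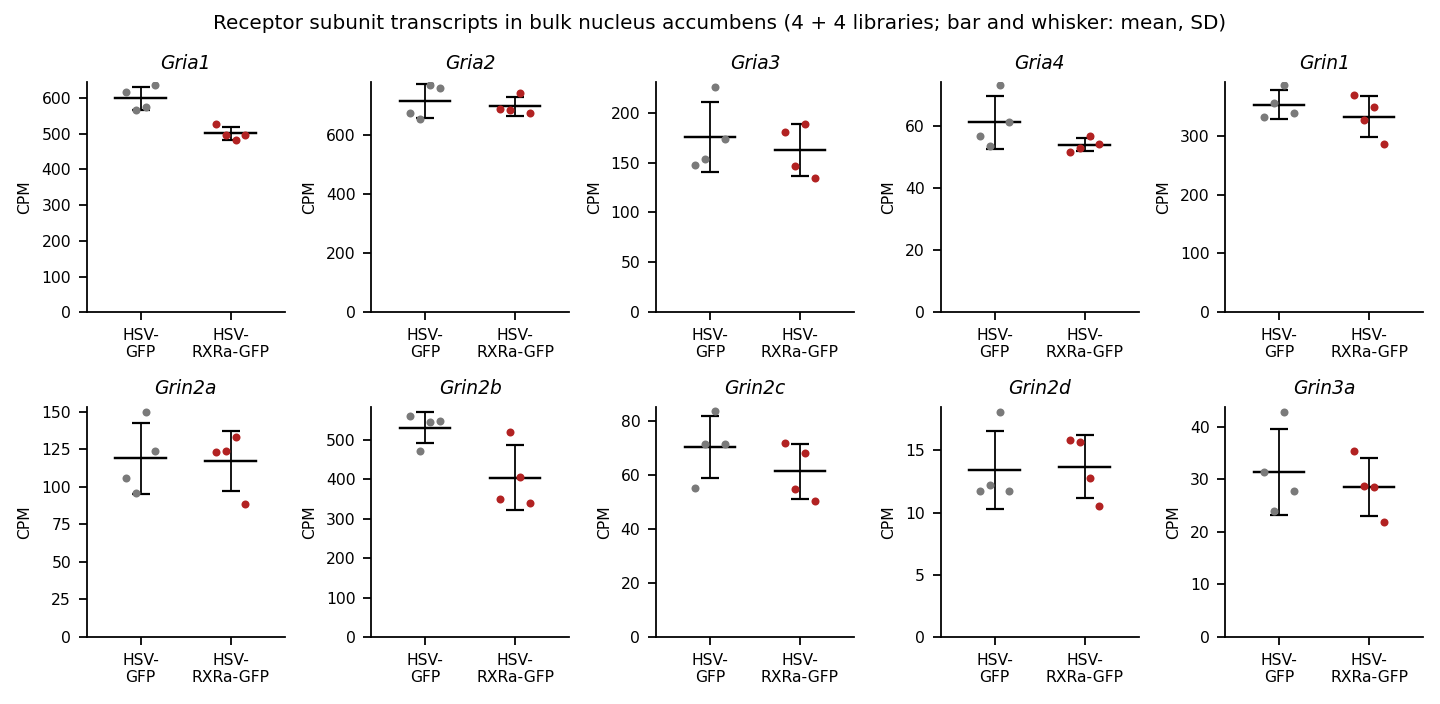
Level of each subunit in bulk accumbens in CPM (y axis, from 0) for the 4 HSV-GFP (grey) and 4 HSV-RXRa-GFP (red) libraries; points are libraries, bars the mean and whiskers the SD. The Gria1 groups are apart (568 to 637 against 484 to 528 CPM), and the groups of the other 9 subunits overlap.

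In sorted control nuclei the order of the subunits depended on the length used. Per kilobase of gene body Gria2 was the highest and stood at 4.08 ± 0.895 CPM in D1 EGFP (SD, n = 10) and 4.52 ± 0.844 in D2 EGFP (SD, n = 9), above Grin1 in every library. Grin1 followed at 2.25 ± 0.598 in D1 and 2.75 ± 0.677 in D2, and Gria1 at 1.93 ± 0.39 and 2 ± 0.201. Grin1 was above Gria1 in 7 of 10 D1 and 8 of 9 D2 libraries, so that step is not a firm one. Grin2b (1.56 ± 0.256 and 1.58 ± 0.129), Gria3 (1.18 ± 0.219 and 1.29 ± 0.191), Grin2a (1.13 ± 0.142 and 1.14 ± 0.0776) and Gria4 (0.934 ± 0.152 and 0.948 ± 0.0905) came next in both populations. The ranges of Gria3 and Grin2a overlapped in both. In CPM, with no length, Grin2b (718 ± 118 in D1 EGFP) and Gria1 (617 ± 124) had higher means than Gria2 (495 ± 109).

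Set against the silent-gene density, the subunits fell into a graded order. A silent gene of the same length would carry 12.7% of the Gria2 count in the median D1 EGFP library, 24.3% for Grin1, 26.9% for Gria1, 33.1% for Grin2b, 44% for Gria3, 45.8% for Grin2a and 55.3% for Gria4. For the X-linked Gria3 the share was 31.1% in female and 18% in male EGFP libraries with the density of silent X-linked genes, against 38.9% and 45.3% with the autosomal one, so its place in that order depends on the density used. For Grin2d the share was 73.9% in D1 EGFP and 96.2% in D2 EGFP, and for Grin3a 82.7% and 84.5%. Grin2c lay at or below this level, at 112% and 131%. Of all 35 libraries, Grin2c was above the density in 8, Grin2d in 27, and each of the other 8 subunits in 35. Grin2c, and Grin2d in D2, were therefore at or close to what a silent gene would give, and no direction is read from them.

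After subtraction of the density, and per gene-body length, Gria2 made up 58.8% ± 2 of the 4 AMPA subunits in D1 EGFP (SD, n = 10) and 59.8% ± 3.22 in D2 EGFP (SD, n = 9), and Gria1 23.4% ± 2.67 and 22.4% ± 2.76. Gria3 took 11% ± 2.2 and 11.5% ± 2.55, and Gria4 6.81% ± 0.759 and 6.27% ± 0.525. Without subtraction Gria2 took 50% and 51.3% and Gria4 11.6% and 10.9%. With exon length in place of gene-body length, and no subtraction, Gria1 led with 45.6% and 45.1%, and Gria2 took 14.2% and 15%. Among Grin2a to Grin2d, Grin2b took 56.4% ± 3.18 in D1 EGFP and 61.5% ± 3.89 in D2 EGFP after subtraction, and Grin2a 33.5% ± 1.69 and 35.4% ± 1.8. Without subtraction Grin2b took 40.5% and 43.3%, and Grin2a 29.4% and 31.1%. With exon length and no subtraction Grin2b took 46.2% and 47.5%, and Grin2a 43.3% and 44%. In the shares after subtraction, values below 0 were set to 0. Under RXRa, Gria2 took 57% ± 4.01 in D1 RXRa and 60.6% ± 3.98 in D2 RXRa of the AMPA subunits (SD, n = 8 each), means within 1 SD of those under EGFP. Without subtraction it took 50.8% ± 2.69 and 55.3% ± 3.94, the second more than 1 SD above the 51.3% ± 3.22 of D2 EGFP. These shares were not tested.

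**Figure D2:**
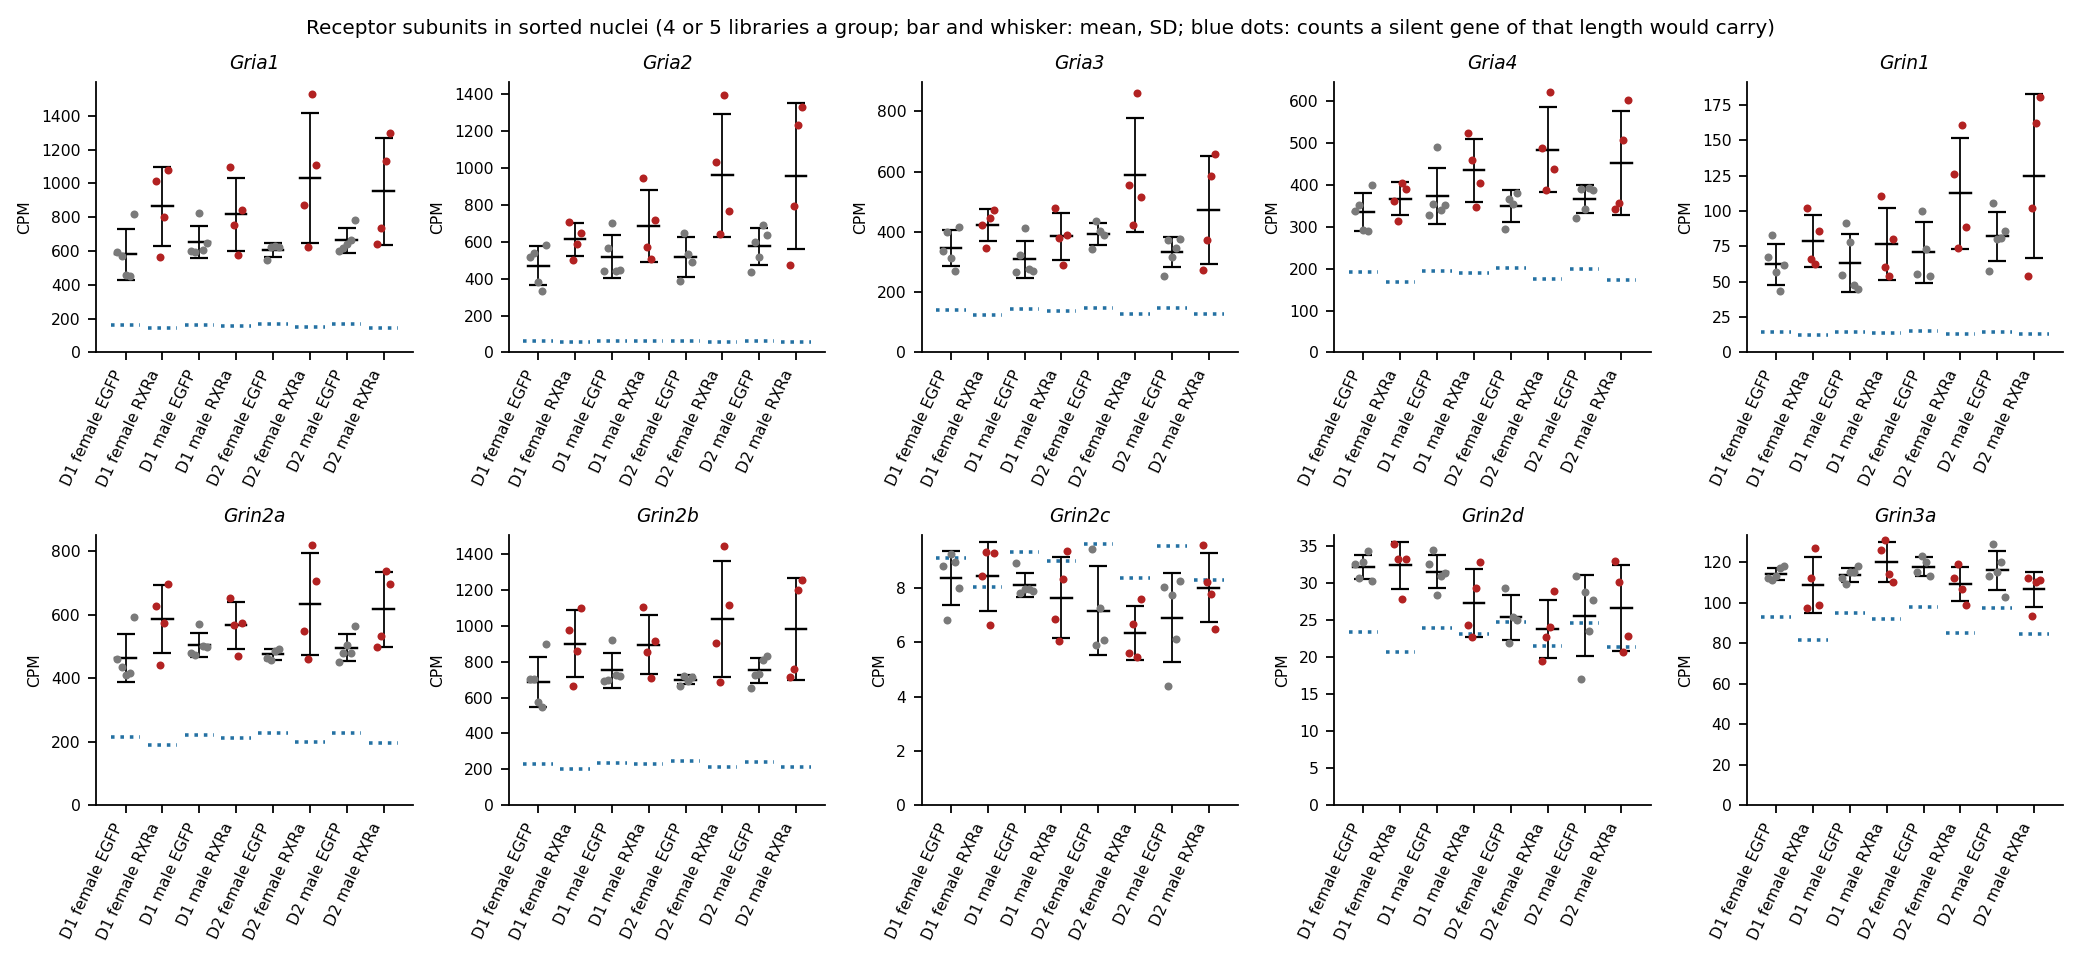
Level of each subunit in sorted nuclei in CPM (y axis, from 0) for the 8 groups, EGFP in grey and RXRa in red; points are libraries, bars the mean and whiskers the SD, and blue dotted lines what a silent gene of that length would carry. Gria1, Gria2, Grin1 and Grin2b stand well above the dotted line, Grin2c sits at or under it, and the D2 RXRa groups have the widest spread.

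On the CPM scale 7 of the 10 subunits were called higher in D2 RXRa nuclei: all 4 AMPA subunits, Grin1, Grin2a and Grin2b. All 7 calls were lost when 1 RXRa library was left out and when the silent-gene density entered as a covariate. Gria2 ran from 387 through a median of 535 to 689 CPM in the 9 D2 EGFP libraries and from 475 through 914 to 1398 CPM in the 8 D2 RXRa libraries. Of the 8, 6 lay above every EGFP library and 1 below the EGFP median. The log2 fold change was 0.82 ± 0.17 (SE; a ratio of 1.76; adjusted p = 0.0111 by edgeR), against a background of 22.1% called among 43902 genes (6548 up, 3135 down). With library totals in place of TMM scaling, 18.1% of the called genes were higher, against 67.6% with it. Gria1 to Gria4 and Grin2b were then called higher and Grin3a lower, and the median of all genes moved from -0.04 to -0.20.

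Gria1 ran from 547 through 624 to 786 CPM under EGFP and from 625 through 989 to 1529 CPM under RXRa, with 5 of 8 RXRa libraries above every EGFP library. Its log2 fold change was 0.65 ± 0.16 (adjusted p = 0.0114 by edgeR). Grin1, without which no NMDA receptor forms, ran from 53.9 through 80 to 106 CPM and from 54.1 through 114 to 181 CPM. The groups overlapped more there: 4 of 8 RXRa libraries exceeded every EGFP library and 2 lay below the EGFP median. The log2 fold change was 0.64 ± 0.20 (adjusted p = 0.0259 by edgeR). Its call held in 11 of the 17 fits that each left out 1 D2 library and under 4 of 9 other settings, against 15 or 16 and 6 or 7 for each of the other 6 called subunits.

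Gria3 ran from 254 through 373 to 435 CPM under EGFP and from 274 through 536 to 860 CPM under RXRa (log2 fold change 0.54 ± 0.14, adjusted p = 0.0134 by edgeR). Gria4 ran from 295 through 366 to 392 CPM and from 342 through 463 to 622 CPM (0.39 ± 0.11, adjusted p = 0.0166). Each had 5 of 8 RXRa libraries above every EGFP library. Grin2b ran from 655 through 721 to 833 CPM and from 689 through 1010 to 1444 CPM (0.48 ± 0.13, adjusted p = 0.0141 by edgeR). Grin2a ran from 452 through 480 to 563 CPM and from 460 through 622 to 819 CPM (0.37 ± 0.10, adjusted p = 0.0152). The groups of all 7 overlapped.

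The remaining subunits were those near the silent-gene density. Grin3a, a subunit that lowers calcium entry through NMDA receptors, ran from 103 through 115 to 129 CPM under EGFP and from 93.6 through 110 to 119 CPM under RXRa (log2 fold change -0.12 ± 0.06, adjusted p = 0.119 by edgeR). It was called lower under 2 of 9 other settings, library totals only and a filter at a mean CPM of at least 1. Those fits called 11391 of 43902 and 10336 of 32544 genes. Grin2c gave 0.02 ± 0.12 and Grin2d -0.02 ± 0.10, neither past the test. Over the 10 subunits the order of the D2 fold changes ran opposite to the background share in D2 EGFP libraries (Spearman rho = -0.92, a description over 10 genes of the same libraries). The same held in D1 (rho = -0.90). The median log2 fold change over the 10 was 0.43 in D2 against -0.04 over all genes.

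The D2 RXRa libraries with the highest subunit levels had a low silent-gene density. Those with the lowest density, female replicate 4 (0.303), male replicate 5 (0.333) and female replicate 5 (0.406), had Gria1 at 1529, 1298 and 1109 CPM, and those with the highest, female replicate 3 (0.55) and male replicate 1 (0.544), had 625 and 643 CPM, as in EGFP nuclei. The order was not strict. Male replicate 2 (0.447) had Gria1 at 733 CPM, below female replicate 2 (0.463) at 870 CPM. Gria2 was at 769 CPM in female replicate 5 and 1033 CPM in female replicate 2. Without female replicate 4 no subunit and no gene was called in D2 by edgeR, and the adjusted p of the 7 subunits lay between 0.0569 and 0.104 with log2 fold changes of 0.28 to 0.68. Without male replicate 5, Gria1 and Gria2 stayed called (adjusted p = 0.0477 and 0.0456) and 1633 genes were called. Across the 35 sorted libraries Pearson's r between log2 level and density was -0.91 for Gria1, -0.83 for Gria2, -0.78 for Grin1, -0.87 for Grin2a and -0.89 for Grin2b, and 0.51 for Grin3a. These correlations describe points that share library and depth: the density and the levels are shares of the same totals.

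With log2 of that density as a covariate, no subunit was called in D2. The log2 fold change was 0.18 ± 0.13 for Gria2, 0.01 ± 0.10 for Gria1, 0.01 ± 0.11 for Gria3, 0.06 ± 0.10 for Gria4, -0.11 ± 0.16 for Grin1, 0.01 ± 0.08 for Grin2a and -0.02 ± 0.09 for Grin2b, each with an adjusted p of 1 by edgeR. No gene at all was called in that fit, and 1347 genes had an unadjusted p under 0.05, against 16290 without the covariate. Because the density is a share of the same library, it falls by construction when other counts take more of the total, and in D2 it also differs between the vectors. Effects of the vector and of the density cannot be told apart in D2 for those libraries.

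**Figure D3:**
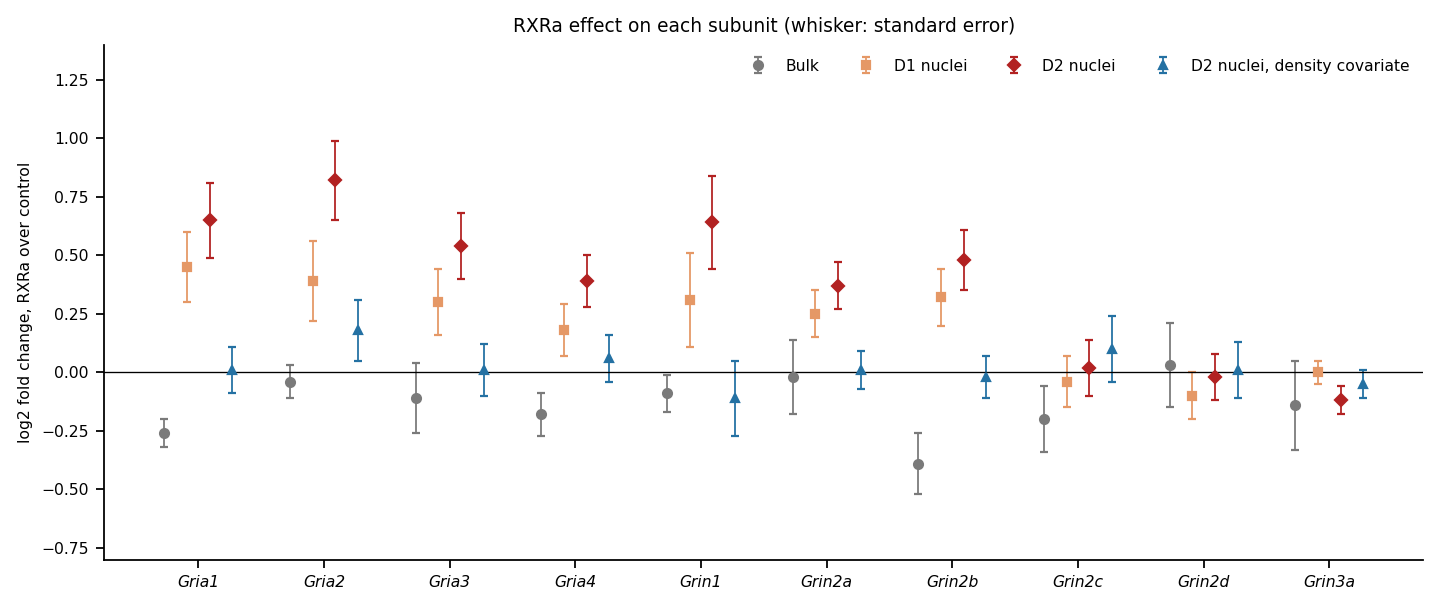
Log2 fold change of RXRa over its control for each subunit (y axis), with the standard error as whiskers, in bulk (grey circles), D1 nuclei (orange squares), D2 nuclei (red diamonds) and D2 nuclei with the silent-gene density as a covariate (blue triangles). Gria1 to Gria4, Grin1, Grin2a and Grin2b lie between 0.37 and 0.82 in D2 and between -0.11 and 0.18 with the covariate.

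**Figure D4:**
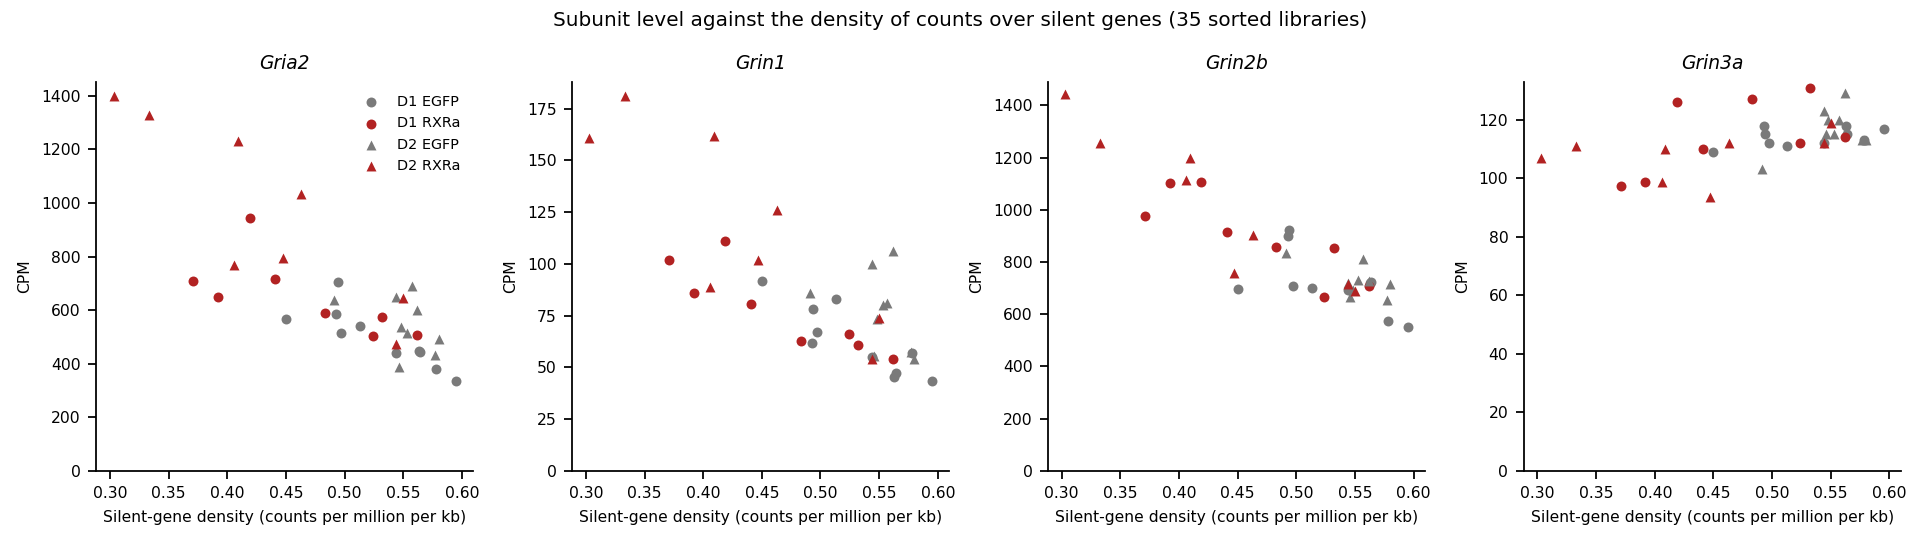
Level of Gria2, Grin1, Grin2b and Grin3a in CPM (y axes, from 0) against the silent-gene density in CPM per kilobase (x axis) in the 35 sorted libraries; circles are D1, triangles D2, grey EGFP and red RXRa. The first 3 fall as the density rises, and Grin3a does not.

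Levels were also described with the density removed. The density times gene length was subtracted from each gene, and the rest was divided by the same rest summed over the 11130 genes above 10 CPM in bulk. That sum was 239344 ± 32135 CPM in D2 EGFP (SD, n = 9) and 422933 ± 157288 CPM in D2 RXRa (SD, n = 8). On this scale, net counts per 1000000 net counts, Gria2 was at 2016 ± 299 in D2 EGFP and 2144 ± 336 in D2 RXRa, Gria1 at 1959 ± 141 and 1982 ± 148, and Grin2b at 2026 ± 120 and 1887 ± 156. For these and Gria3, Gria4, Grin1 and Grin2a, the ratio of means, RXRa over EGFP, lay between 0.931 (Grin2b) and 1.06 (Gria2) in D2 and between 0.997 (Grin1) and 1.12 (Gria1) in D1. For Grin3a, most of whose counts lie at the density, it was 0.706 in D2 and 1.02 in D1. The groups of all 10 subunits overlapped on this scale. It was chosen after seeing the data and is given with no test.

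**Figure D5:**
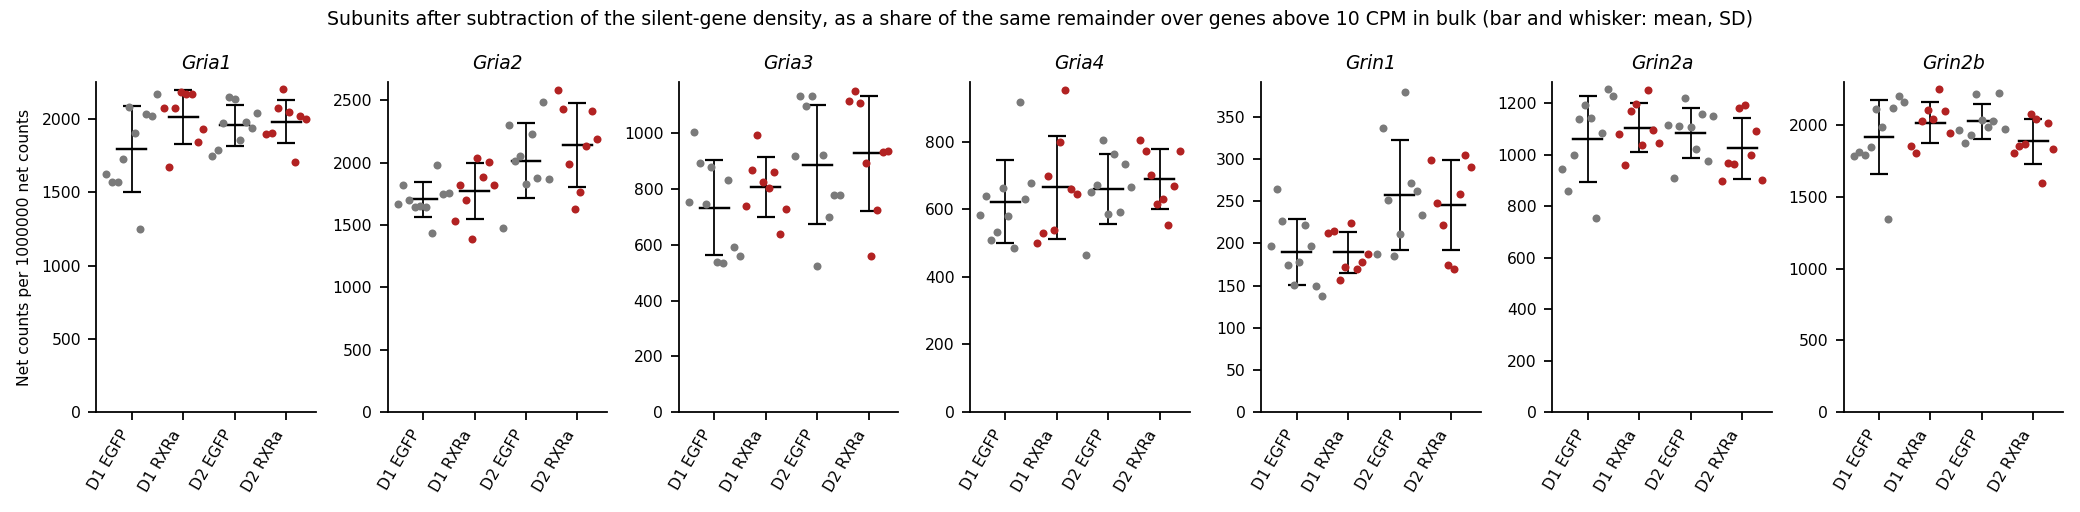
Net counts per 1000000 net counts (y axis, from 0) of Gria1 to Gria4, Grin1, Grin2a and Grin2b, by population and vector; points are libraries, bars the mean and whiskers the SD. EGFP (grey) and RXRa (red) libraries overlap in both populations for each of the 7.

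In D1 nuclei no subunit was called, and neither was any other gene (0% of 43902 genes, with 3518 at an unadjusted p under 0.05 by edgeR and 0 called by DESeq2 or limma). Gria1 ran from 453 through 597 to 823 CPM in the 10 EGFP libraries and from 563 through 823 to 1096 CPM in the 8 RXRa libraries, with 4 of 8 above every EGFP library. Its log2 fold change was 0.45 ± 0.15 (unadjusted p = 0.0056, adjusted p = 0.581 by edgeR). Gria2 was at 0.39 ± 0.17, Grin2b at 0.32 ± 0.12, Gria3 at 0.30 ± 0.14 and Grin2a at 0.25 ± 0.10, each with an unadjusted p under 0.05. The difference between the D2 and the D1 effect was tested and passed for no subunit (0% of all genes called): it was largest for Gria2, at 0.43 ± 0.24 (adjusted p = 0.602). The call in D2 and its absence in D1 are therefore not shown to differ.

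Within each sex no subunit was called by edgeR in either population (0% of genes in each of the 4 tests), while DESeq2 called 6 in D2 females. How many of all genes DESeq2 called there is not given here. In D2 the log2 fold change of Gria2 was 0.90 ± 0.25 in females and 0.74 ± 0.24 in males (adjusted p = 0.0953 and 0.179 by edgeR), and that of Gria1 0.77 ± 0.23 and 0.52 ± 0.22. In D2 females 7 subunits had an unadjusted p under 0.05 by edgeR, as did 11080 of all 43902 genes. In D2 males 6 subunits did, as did 8656 genes. The sex difference of the RXRa effect passed for none, in D1 or in D2 (0% of genes in each).

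Between D1 and D2 control nuclei no subunit was called, where 0.121% of genes were, and the log2 fold changes of D2 over D1 ran from -0.32 (Grin2d) to 0.28 (Grin1). Grin2d had the lowest unadjusted p, but in D2 EGFP it was above the silent-gene density in only 5 of 9 libraries, so no direction is read from it. It ran from 17.1 through 25.4 to 30.9 CPM in D2 and from 28.4 through 31.9 to 34.5 CPM in D1 (-0.32 ± 0.09, unadjusted p = 0.00194, adjusted p = 0.244 by edgeR). Under RXRa, edgeR called 1 subunit between populations, Gria2, at 0.57 ± 0.18 (adjusted p = 0.0432, where 8.36% of genes were called), and it was lost with the density as a covariate. DESeq2 called 3.

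Between females and males under EGFP no subunit was called, where 4.43% of genes were. Gria3 is the X-linked member, at 368 ± 54.5 CPM in 9 female and 321 ± 54.4 CPM in 10 male EGFP libraries (log2 fold change 0.20 ± 0.14, unadjusted p = 0.146 by edgeR). The density over 118 silent X-linked genes was 0.808 ± 0.0255 of the autosomal density in female and 0.405 ± 0.0173 in male EGFP libraries. Gria3 less the X-linked density was 0.906 ± 0.19 CPM per kilobase in females and 0.945 ± 0.194 in males, a difference well inside the SD. Less the autosomal density it was 0.807 ± 0.198 and 0.635 ± 0.203. The X-linked density was chosen after seeing the data.

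Correlations among the subunits across the 35 sorted libraries are given as a description of libraries that share depth and density. Pearson's r of log2 levels was 0.99 between Gria1 and Grin2b, 0.98 between Gria1 and Grin2a, and 0.92 between Gria2 and Grin1. Grin2c and Grin2d, both near or under the density, had r = 0.85 with each other and between -0.59 and -0.18 with Gria1 to Gria4, Grin1, Grin2a and Grin2b. Grin3a had r between -0.45 (Grin2d) and 0.02 (Gria4) with the other 9. Among 11834 protein-coding genes above 10 CPM, the one most like Gria1 was Sipa1l1 (r = 0.991), the one most like Gria2 was Srek1 (0.989), and the one most like Grin2b was Plcl2 (0.989). For Gria4 it was Phf14 (0.977), for Grin1 Trrap (0.986), for Grin2a Unc79 (0.986), for Grin2c Ptges (0.896), for Grin2d Ephb2 (0.971) and for Grin3a Grm8 (0.909).

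Genes that accompany the receptors gave counts of the same order in D2. Of 27 AMPA auxiliary and trafficking genes 14 were higher and 1 lower (median log2 fold change 0.35), of 11 kainate, delta and related subunit genes 6 were higher and 1 lower (0.29), and of 26 postsynaptic scaffold and kinase genes 18 were higher and none lower (0.36), beside the 22.1% called over all genes. Neto1, an auxiliary subunit of kainate receptors, rose from 287 ± 39.1 (SD, n = 9) to 485 ± 183 CPM (SD, n = 8), with a log2 fold change of 0.77 ± 0.17 (adjusted p = 0.0111 by edgeR). Shisa7, which binds AMPA receptors and inhibitory receptors, rose from 42.5 ± 8.67 to 71.8 ± 24.4 CPM, and Nlgn2, an adhesion protein of inhibitory synapses, from 19.6 ± 5.23 to 31.1 ± 11.8. Grik1, a kainate receptor subunit, fell from 247 ± 18 to 219 ± 20.5 CPM, and the AMPA receptor partner Shisa6 from 182 ± 5.66 to 168 ± 8.24. Among these lists in bulk only Grik2, another kainate receptor subunit, was called, falling from 125 ± 7.15 to 104 ± 5.06 CPM (-0.26 ± 0.06, adjusted p = 0.0412). Between populations under EGFP the scaffold gene Shank1 was lower in D2, at 30 ± 4.68 against 41.7 ± 2.18 CPM (-0.48 ± 0.08, adjusted p = 0.0015). In D1 none of these genes passed.

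Other classes of genes moved with the D2 result too. Of 5 D2 projection neuron markers 4 were called higher in D2 RXRa nuclei (median log2 fold change 0.67), their summed level running from 887 to 1365 CPM in female EGFP, 1128 to 2743 in female RXRa, 762 to 1472 in male EGFP and 890 to 2548 in male RXRa libraries. Of 5 D1 projection neuron markers 2 were called higher and 1 lower (median 0.45). The 5 astrocyte markers summed to 228 to 363 CPM under EGFP and 213 to 334 under RXRa in D2 (1 called, lower), and the 5 oligodendrocyte markers to 129 to 269 and 137 to 206 (none called). Of 5 cortical excitatory neuron markers 1 was called lower in D2, and of 5 microglia markers 1 was called higher and 1 lower. Between D2 and D1 nuclei under EGFP, all 5 D2 markers were called higher. There 3 of 5 D1 markers and 1 of 5 cortical markers were called lower. No marker of these lists was at 0 in either sort. Their part in the subunits' values was not tested.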

How the data were processed

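The authors deposited raw counts, as whole numbers for each gene. Per the submitters' processing notes, the tools were FastQC, Trimmomatic, HISAT2, Picard, featureCounts and Subread, and the build GRCm38. Tool versions, annotation release, use of strand and treatment of intron reads are not given in the sources used here. Reads from overlapping genes may therefore be shared: Grin1 overlaps the antisense gene Grin1os, Grin2d overlaps Kdelr1, Grin2b overlaps opposite-strand non-coding genes, and Grin3a contains Ppp3r2.

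Symbols, positions and lengths came from GENCODE mouse release 21, in which 55394 of 55487 gene IDs matched. Counts were tested with edgeR 4.0.16 in R 4.3.3 (quasi-likelihood test, filterByExpr by group, TMM scaling, Benjamini-Hochberg adjustment over all genes, threshold 0.05) in 13 contrasts, bulk fitted alone and the 8 sorted groups together, sexes weighted equally. Standard errors derive from the fold change and the F statistic. CPM are counts per 1000000 of the TMM-scaled library. Vector rows were left out of totals and tests. Alternatives used DESeq2 1.42.0, limma 3.58.1 and other settings given at the end. No pair among 72 replicate pairs agreed within sampling noise (chi-square per degree of freedom 1.91 to 73.5). On simulated counts with 200 changed genes, the test recovered 48% of 1.5-fold and 84% of 2-fold changes in bulk (18329 genes), and 76% and 97% in D2 (43144 genes). Those counts were drawn for each gene independently, without a density that moves many genes of a library together. The rates therefore do not carry over to calls in the real D2 libraries. Members, gene lists and markers were chosen with earlier results of these data known. The text names all 10 members, up to 3 called genes a direction of the related lists (mean CPM of at least 1), and the protein-coding gene most like each member, of which 1 is not reported here (Pearson's r of log2(CPM + 1), mean CPM of at least 10). Calls among the cell type markers are given for bulk, D1, D2 and D2 against D1 under EGFP, with summed levels for some lists. Depth limits Grin2c and Grin2d most, at 4.39 to 9.56 and 17.1 to 35.2 CPM in sorted nuclei.

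The subunits lie on GRCm38 at chr11:57011387-57330244 (Gria1), chr3:80681450-80802835 (Gria2), chrX:41400854-41678601 (Gria3), chr9:4417896-4796234 (Gria4), chr2:25291181-25319187 (Grin1), chr16:9567898-9995560 (Grin2a), chr6:135713233-136173511 (Grin2b), chr11:115249169-115267243 (Grin2c), chr7:45831883-45878378 (Grin2d) and chr4:49661611-49845744 (Grin3a).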

Additional observations from a re-analysis of the deposited data

Results flagged for a closer look

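In 9 of 100 sets of a subunit and a group, 1 library stood apart from the others by Dixon's test, which marks about 1 set in 20 by chance. D1 male EGFP replicate 3 was the highest of 5 for Gria1 (823 CPM, the others 595 to 645), Gria4 (491, the others 327 to 354) and Grin2b (922, the others 691 to 723). In bulk, GFP replicate 2 was the lowest for Grin2b (472 CPM, the others 545 to 560) and GFP replicate 3 the highest for Grin2d (18.1, the others 11.7 to 12.2). Grin2a was highest in D1 female EGFP replicate 5 (592 CPM, the others 410 to 461), and Grin2c in D1 male EGFP replicate 1 (8.9, the others 7.8 to 7.95). Gria1 was lowest in D2 female EGFP replicate 1 (547 CPM, the others 623 to 629), and Grin3a in D2 male RXRa replicate 2 (93.6, the others 110 to 112).

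The library whose title and vector label disagree held the RXRa vector sequence at 178 CPM, from 2941 counts, where assigned EGFP libraries reached 0.877 CPM at most. It entered no comparison.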

How the results depend on the processing

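In bulk, no subunit was called with library totals only, without a low-count filter, or with the replicate block, where 0 genes were called (3303 at an unadjusted p under 0.05), while DESeq2 called 1619 genes. Leaving out each library gave 0 to 1 subunits and 9 to 1016 genes called, the fewest without GFP replicate 4. In D2, 0 subunits and 1 gene were called with the replicate block, and 0 subunits and 0 genes with the silent-gene density as a covariate. With only the groups of the contrast, 6 subunits and 2547 genes were called in D2. Leaving out each library gave 0 to 7 subunits and 0 to 14766 genes in D2, the fewest without female RXRa replicate 4 and the most without male RXRa replicate 1. It gave 0 to 6 subunits in D2 females (6 also with DESeq2) and 0 to 4 in D2 males, without the counts over all genes. Between populations under RXRa, leaving out a library gave 0 to 4 subunits, DESeq2 called 3, and 0 were called with library totals only, a mean CPM of at least 1, limma voom, the replicate block across populations (added after seeing the data), the density covariate or only the groups of the contrast. For these fits under RXRa the counts over all genes are not given either. The subunit counts of these fits, within each sex and under RXRa, are therefore not read as results about the subunits. Under EGFP the 53 genes called became 90 with DESeq2, 30 with that replicate block, 203 with the covariate and 134 with only the groups of the contrast.

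Correlations of same-numbered deviations ran from -0.67 to 0.66 in bulk, -0.32 to 0.52 in D1 females and -0.70 to -0.35 in D1 males. They ran from -0.47 to 0.34 in D2 females and -0.54 to 0.87 in D2 males. With 3 or 4 pairs in each set, these values cannot decide whether replicate numbers pair the samples. With library totals only, 18.1% of the genes called in D2 were higher, against 67.6% with TMM, the median of all genes moved from -0.04 to -0.20, and 5 subunits were called higher and 1 lower.

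Some signs turned. With library totals only, the log2 fold change was 0.00 for Gria2 and 0.02 for Grin2a in bulk, -0.07 for Grin3a in D1 and -0.14 for Grin2c in D2. Grin3a in D1 was 0.00 with limma voom and with the replicate block. With the density covariate Grin1 was -0.05 and Grin2c 0.00 in D1, and in D2 Grin1 was -0.11 and Grin2b -0.02, both called higher without it, and Grin2d 0.01. Grin2d in D2 was 0.01 with RLE size factors, DESeq2 or only the groups of the contrast, and 0.05 with the replicate block. Leaving out single libraries gave ranges in bulk of -0.19 to 0.03 for Gria3, -0.11 to 0.11 for Grin2a, -0.04 to 0.21 for Grin2d and -0.25 to 0.05 for Grin3a. In D1 the ranges were -0.09 to 0.01 for Grin2c and -0.04 to 0.03 for Grin3a, and in D2 -0.06 to 0.10 for Grin2c and -0.09 to 0.03 for Grin2d. For D2 over D1 under EGFP they were 0.00 to 0.08 for Gria4, -0.02 to 0.06 for Grin2a and -0.02 to 0.07 for Grin2b. The causes of these changes were not tested. Of 358 subunit values under other settings, 322 kept direction and side of the threshold, and of 655 with a library left out, 586 did.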

Other observations

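In the library that the labels put in no group, Gria1 stood at 639 CPM, Gria2 at 594, Gria3 at 386, Gria4 at 339, Grin1 at 84.6, Grin2a at 460, Grin2b at 694, Grin2c at 8.96, Grin2d at 32.3 and Grin3a at 105. Its total was 15630501 counts and its silent-gene density 0.505.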
